A study of Mus musculus with 16 samples.

Results

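The genes described here are the 4 ID genes, *Id1*, *Id2*, *Id3* and *Id4*, and 6 further genes of the bone morphogenetic protein (BMP) pathway. These are the inhibitory SMADs *Smad6* and *Smad7*, the decoy receptor *Bambi*, the ligands *Bmp2* and *Bmp4* and the secreted antagonist *Nog*. The list of 10 genes, out of 45706 gene rows in the count table, was drawn up by name with earlier results of the same age comparison known, so their change with age is given as a description and no test result is reported for it. All 10 rows were found, and all 10 passed the filter on low counts. The list goes under the heading of ID proteins and BMP pathway inhibitors, although *Bmp2* and *Bmp4* are ligands that activate the pathway.

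Ear clips came from male mice of the inbred strain C57BL/6J, 8 animals in all, for which the labels name no engineered allele and no treatment. Each mouse was biopsied first at about 24 months and again, in the other ear, at about 30 months, which gave 8 libraries per age and 16 in all. The exact ages were 23.8 to 24.4 months and 29.0 to 30.1 months, with 5.0 to 6.3 months between the biopsies of a mouse. The mice are named by their numbers in the labels (13, 14, 21, 29, 43, 50, 64 and 75), and no sequencing batch is named. The labels call the first biopsy young and the second old, whereas both are from aged animals. An ear clip is a bulk tissue of epidermis, dermis, vessels, cartilage and muscle, so fewer cells of a type and less RNA per cell cannot be told apart.

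ID proteins are helix-loop-helix proteins without a DNA-binding region, which pair with other helix-loop-helix transcription factors and keep them from DNA. Their genes are classical targets of BMP signalling, in which a ligand brings receptor kinases together, the receptors phosphorylate SMAD proteins, and these enter the nucleus with SMAD4. The pathway also switches on its own brakes, the inhibitory SMADs and BAMBI among them, while noggin captures ligands outside the cell. In skin, BMP signals are known for holding hair follicle stem cells at rest and for guiding keratinocyte differentiation.

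The 4 ID genes lie on different chromosomes. On GRCm38, the build of the deposited counts, *Id1* (ENSMUSG00000042745) spans chromosome 2, 152736251 to 152737410, and *Id2* (ENSMUSG00000020644) chromosome 12, 25093799 to 25097140 on the minus strand. *Id3* (ENSMUSG00000007872) spans chromosome 4, 136143497 to 136145755, and *Id4* (ENSMUSG00000021379) chromosome 13, 48261228 to 48266026. They are shown by a stretch of 90 coding bases of exon 1, written in the direction of the transcript, because it displays what the family shares and why its reads can be told apart. Capitals mark the bases that are identical in all 4 genes, 54 of 90 or 60.0%.
Id1: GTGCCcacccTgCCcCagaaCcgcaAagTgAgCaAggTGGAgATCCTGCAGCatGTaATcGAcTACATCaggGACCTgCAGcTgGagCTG
Id2: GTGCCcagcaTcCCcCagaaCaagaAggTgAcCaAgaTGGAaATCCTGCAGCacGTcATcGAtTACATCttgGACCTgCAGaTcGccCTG
Id3: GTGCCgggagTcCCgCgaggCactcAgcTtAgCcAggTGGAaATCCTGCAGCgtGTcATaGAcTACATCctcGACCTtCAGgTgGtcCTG
Id4: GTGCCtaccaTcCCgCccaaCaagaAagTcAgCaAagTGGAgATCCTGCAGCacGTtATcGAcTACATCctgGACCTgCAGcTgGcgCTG
The stretches, taken from GENCODE M21 transcripts, lie at chr2:152736557-152736646, chr12:25095774-25095863 (minus strand), chr4:136144041-136144130 and chr13:48261732-48261821. In this stretch the pair with the fewest identical bases was *Id1* and *Id3* (66.7%) and the pair with the most was *Id1* and *Id4* (82.2%). Over whole transcripts, the longest run of bases that any pair of ID genes shared was 11 to 19 bases, well under the read length of 50 bases. It was 12 bases between *Smad6* and *Smad7* and 16 between *Bmp2* and *Bmp4*.

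The remaining members are *Smad6* (ENSMUSG00000036867; chromosome 9, 63953076 to 64022059, minus strand), *Smad7* (ENSMUSG00000025880; chromosome 18, 75367529 to 75395935) and *Bambi* (ENSMUSG00000024232; chromosome 18, 3507923 to 3516404). *Bmp2* (ENSMUSG00000027358) lies at chromosome 2, 133552159 to 133562885, *Bmp4* (ENSMUSG00000021835) at chromosome 14, 46383520 to 46390669 on the minus strand, and *Nog* (ENSMUSG00000048616) at chromosome 11, 89300638 to 89302332 on the minus strand. Values of *Id4* and *Bmp4* could hold reads of antisense genes, since the library kit does not mark strand. *Id4* shares 82 exon bases with A330033J07Rik, which had a median count of 45 beside 1212 for *Id4*. It also shares 171 exon bases with Gm49291 on the opposite strand, for which no count was analysed here, so the antisense share of *Id4* is not bounded. *Bmp4* shares 89 exon bases with Gm15217, with a median count of 2 beside 429.

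Libraries held 27494852 to 35527197 gene-assigned reads at 24 months and 22967222 to 36162431 at 30 months. Counts of the members ran from 77 for *Nog* to 4147 for *Id1* in a library. Levels are given as CPM, the count scaled to reads on genes and by TMM, a normalization that sets the bulk of genes equal between libraries. The tissue label fitted the defining markers of skin, with *Krt5* of basal keratinocytes at 2214 to 6439 CPM over both ages and *Krt14* at 3173 to 6882. The make-up of the clips varied. Fibroblast markers summed to 3894 to 7626 CPM at 24 months and 2596 to 14238 at 30 months, and skeletal muscle markers to 644 to 8302 and 926 to 6396. All 7 cartilage markers tested had a fitted change below 0 (median log2 change -0.46). At an unadjusted p under 0.05, 5 were lower, beside 7.37% of all genes, and 2 were lower in all mice, beside 1.8%. All 5 pigment cell markers were below 0 as well (median -0.48). All 7 skeletal muscle markers had a fitted change above 0 (median log2 change 1.003), with 0 at an unadjusted p under 0.05. Their median within-mouse change ran from -3.55 in mouse 43 to 3.28 in mouse 13. No marker of these lists passed the adjusted threshold.

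*Id1* and *Id3* were the members whose level was higher at 30 months by the widest margin. *Id1* was at 58.7, 64.9 and 80.9 CPM (lowest, median and highest of 8 mice) at 24 months and at 58.4, 94.7 and 134 CPM at 30 months. In 5 of the 8 mice the later library lay above every library of the earlier age, in mouse 13 it lay below them all, and in the other two it lay within their range. The fitted log2 change was 0.45 (SE 0.16), higher in 6 of 8 mice. It ran from -0.23 in mouse 13 and -0.18 in mouse 50 to 1.08 in mouse 64 and 1.18 in mouse 14.

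*Id3* differed from *Id1* in the evenness of the change. Its level was 33.7, 42.8 and 53.8 CPM at 24 months and 45.8, 60.9 and 76.1 CPM at 30 months, with 6 of the 8 later libraries above every earlier one. The fitted log2 change was 0.46 (SE 0.11), and it was higher in 8 of 8 mice, from 0.12 in mouse 43 to 0.99 in mouse 14. Mice 29 and 50, at 0.13 each, were close to the lower end, and mouse 64 at 0.86 was close to the upper end. Mouse 14 had the lowest *Id3* and *Id1* of all mice at 24 months and the largest difference in both.

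*Id2* went in different directions in different mice. It was at 57.9, 66.0 and 76.0 CPM at 24 months and at 47.3, 73.5 and 116 CPM at 30 months. The later libraries lay on both sides of the earlier ones, 4 above all of them and 2 below. The fitted log2 change was 0.13 (SE 0.15), with 5 of 8 mice higher, from -0.54 in mouse 13 and -0.50 in mouse 29 to 0.92 in mouse 50. It was 0.02 without mouse 50, and 0.23 and 0.22 without mouse 13 and mouse 29.

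*Id4*, the ID gene with the narrowest range at 24 months, was at 36.8, 39.8 and 43.4 CPM at 24 months and at 32.8, 45.5 and 50.3 CPM at 30 months. At 30 months 5 libraries were above and 2 below all earlier ones. The fitted log2 change was 0.08 (SE 0.085), from -0.28 in mouse 50 to 0.43 in mouse 64. It was 0.03 without mouse 64, and 0.13 and 0.14 without mouse 13 and mouse 50.

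**Figure D1:**
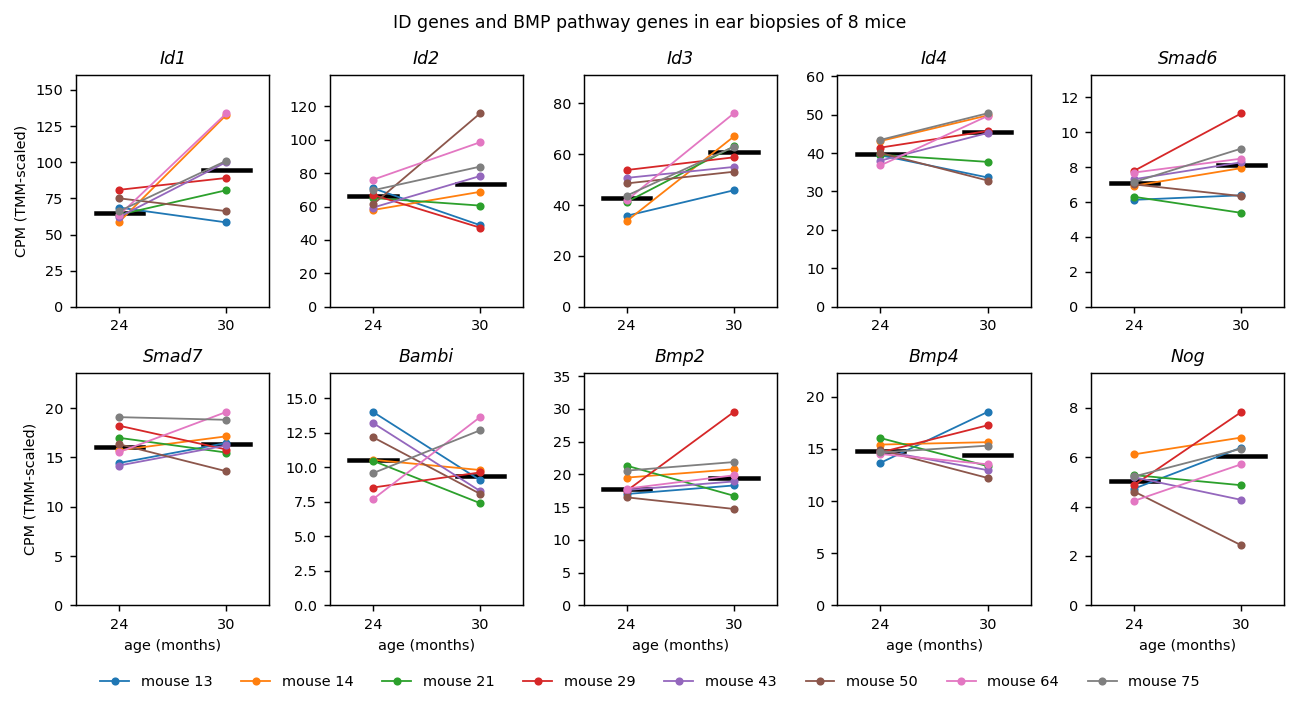
CPM (TMM-scaled, vertical axes from 0) of each of the 10 genes in the ear biopsies of 8 mice at 24 and 30 months. A coloured line joins the libraries of a mouse and a black bar marks the median of 8. For *Id3* all 8 lines slope upwards, for *Id1* 6, and the points of *Id1*, *Id2*, *Id4*, *Smad6*, *Bmp2*, *Bmp4* and *Nog* fan out at 30 months.

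The inhibitory SMADs, which block receptor signalling from inside the cell, each had levels at 24 months that overlapped those at 30 months. *Smad6*, the inhibitor with a preference for BMP signals, was at 6.13, 7.08 and 7.79 CPM at 24 months and at 5.38, 8.11 and 11.1 CPM at 30 months. Its fitted log2 change was 0.13 (SE 0.099), higher in 6 of 8 mice, with mouse 29 at 0.51 and mouse 21 at -0.23, and it was 0.08 without mouse 29. *Smad7*, which acts on the TGF-beta branch as well, was at 14.2, 16.0 and 19.1 CPM and then at 13.6, 16.3 and 19.6 CPM. The groups overlapped almost wholly, and the log2 change of *Smad7* was 0.03 (SE 0.084), with 4 mice higher and 4 lower.

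*Bambi*, a transmembrane protein that resembles a receptor without its kinase, was the member with the lowest fitted change. It was at 7.69, 10.5 and 14.01 CPM at 24 months and at 7.40, 9.35 and 13.6 CPM at 30 months. Mouse 64 had the lowest level at 24 months and the highest at 30 months. The log2 change was -0.14 (SE 0.18), lower in 5 of 8 mice, from -0.67 in mouse 43 to 0.82 in mouse 64. It was -0.28 without mouse 64, -0.22 without mouse 75, and between -0.08 and -0.06 without mouse 13, 21, 43 or 50.

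Of the ligands, *Bmp2* was at 16.5, 17.7 and 21.3 CPM at 24 months and at 14.7, 19.4 and 29.6 CPM at 30 months. The highest of these values came from mouse 29, whose log2 change of 0.75 stood apart from those of the other mice, and the fitted log2 change of 0.10 (SE 0.11) was 0.01 without that mouse and 0.17 without mouse 21. *Bmp4* was at 13.7, 14.7 and 16.0 CPM and then at 12.2, 14.4 and 18.5 CPM, with a log2 change of -0.01 (SE 0.094) and 4 mice in each direction. *Nog*, whose protein noggin binds both ligands, was at 4.23, 5.03 and 6.11 CPM and then at 2.43, 6.03 and 7.83 CPM. Its log2 change was 0.09 (SE 0.17), from -0.90 in mouse 50 to 0.68 in mouse 29, and it was 0.23 without mouse 50 and 0.01 without mouse 29. Without mouse 13 or 64 it was 0.04, without mouse 43 0.15.

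**Figure D2:**
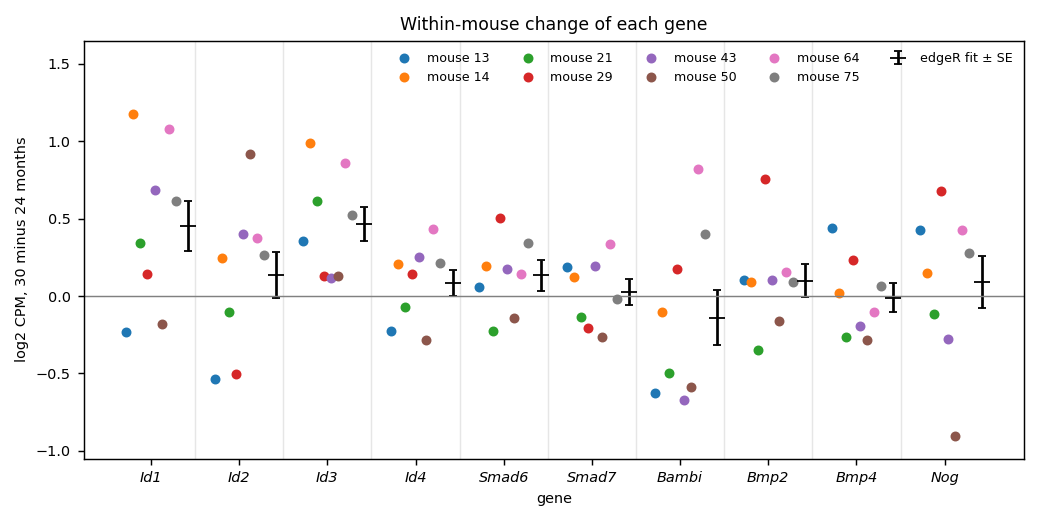
Within-mouse change of each gene as log2 CPM at 30 months minus log2 CPM at 24 months, with a coloured point per mouse and a black bar for the edgeR estimate with its standard error. The 8 points of *Id3* lie above 0, from 0.12 to 0.99, whereas those of every other gene lie on both sides of 0.

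These values stand in a comparison in which no gene passed the threshold. In the edgeR quasi-likelihood fit, with a term for every mouse, 0 of 20116 genes tested (0%) had a Benjamini-Hochberg adjusted p-value under 0.05, and the smallest was 0.0675. At an unadjusted p under 0.05, 4.83% of all genes were higher and 7.37% lower. The fitted change was above 0 in 8 of 10 members and in 52.1% of all genes, and higher in all mice in 1 of 10 members and 1.09% of genes. The median log2 change of all genes was 0.01. The members were chosen on this contrast, so nothing is read from these counts. DESeq2's Wald test on the same counts called 241 genes past an adjusted p of 0.05.

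Whether a mouse kept a level of its own over both biopsies was tested separately, since the choice of genes did not use differences between mice. No member passed this test (edgeR's quasi-likelihood test of all mouse terms). The smallest unadjusted p among them was 0.0913, for *Smad6*, and its adjusted p was 0.968. Among all genes 0% passed the adjusted threshold and 2.49% had an unadjusted p under 0.05, of which 0 were members.

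After the mouse and age terms, the biological coefficient of variation of edgeR, the relative spread left between libraries beyond counting noise, was 25.8% for *Bambi*, 24.5% for *Nog*, 23.0% for *Id1* and 21.5% for *Id2*. It was lowest for *Id4* (13.9%) and *Smad7* (14.5%), beside a median of 17.4% over all genes. *Id3* was at 16.5%. The spread between mice was also wider at 30 months for most members. The SD of log2 CPM of *Id2* was 0.14 at 24 months and 0.46 at 30 months, a ratio of 3.38 that exceeded that of 95.3% of the genes tested. The ratio was 3.34 for *Nog*, 3.17 for *Bmp4*, 3.08 for *Id4*, 2.83 for *Id1*, 2.71 for *Smad6* and 2.20 for *Bmp2*. *Id3* stood apart from the other ID genes with a ratio of 0.949, and *Bambi* and *Smad7* had ratios close to 1, with 1.03 for *Bambi*. A larger SD at the later age was common, with 78.8% of all genes and a median ratio of 1.43. A ratio above 2 was found in 7 of 10 members and in 23.6% of all genes. This is a description of the same libraries and was not tested.

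**Figure D3:**
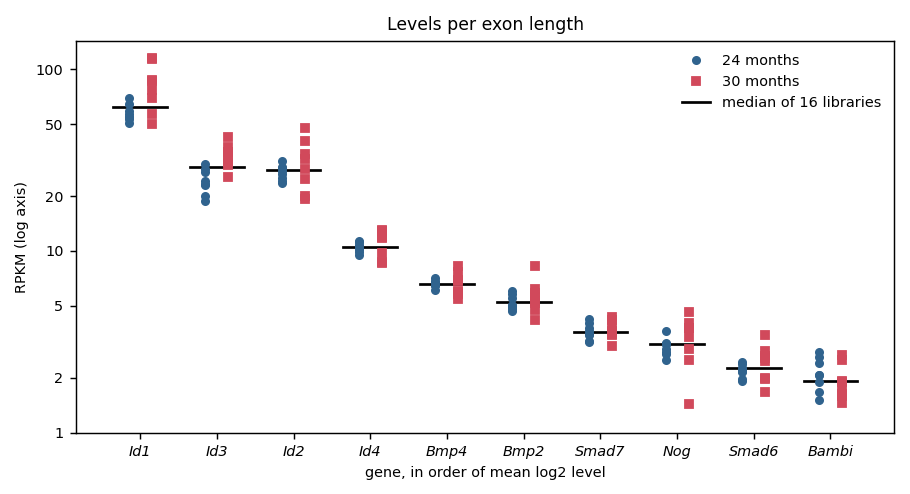
Level per exon length (RPKM, log axis) of the 10 genes in each library, with circles for 24 months, squares for 30 months and a bar at the median of 16 libraries. *Id1* is at the top with a median of 61.9, *Id3* and *Id2* lie side by side at 29.0 and 27.8, and *Bambi* is at the bottom with 1.92.

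Levels between genes were compared as RPKM, which divides by the exon length of the gene. The lengths were those of all annotated exons joined, and they were not varied. The ID genes headed the order. The median RPKM over 16 libraries was 61.9 for *Id1*, 29.0 for *Id3*, 27.8 for *Id2* and 10.6 for *Id4*. The ligands followed with 6.56 for *Bmp4* and 5.24 for *Bmp2*, and the inhibitors were lowest with 3.60 for *Smad7*, 3.07 for *Nog*, 2.26 for *Smad6* and 1.92 for *Bambi*. Among all genes tested, *Id1* lay at the percentile 95.0 of RPKM and *Bambi* at 31.4. Part of this order rests on the exon lengths. By median CPM at both ages, *Id2* was above *Id3*, *Bmp2* above *Bmp4*, *Smad6* above *Nog* and *Bambi* above *Smad6*. The other neighbours in the order kept their places in CPM.

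Neighbours in this order were compared within mice by an exact permutation test that flips the signs of the 8 ratios (two-sided), adjusted over 9 pairs, and 8 pairs passed. *Id1* exceeded *Id3* by a log2 ratio of RPKM of 1.25 ± 0.13 (SD, n = 8, exact test, adjusted p = 0.0141), in 8 of 8 mice. *Id3* and *Id2* did not differ beyond their spread, with a log2 ratio of 0.01 ± 0.22 and *Id3* the higher in 4 of 8 mice (SD, exact test, adjusted p = 0.938). *Id2* exceeded *Id4* by 1.38 ± 0.27 and *Id4* exceeded *Bmp4* by 0.70 ± 0.15 on the log2 RPKM scale, in 8 of 8 mice each. The pairs at the low end were less firm. *Smad7* over *Nog* (log2 ratio 0.25, exact test, adjusted p = 0.0301) and *Smad6* over *Bambi* (0.20, exact test, adjusted p = 0.0439) held in 7 of 8 mice. With a mouse left out, the first of these pairs passed only without mouse 14 or 29 and was at exact adjusted p-values of 0.0527 to 0.0603 otherwise. The second passed only without mouse 13 and was at 0.0527 to 0.0879 by the exact test otherwise. With fewer mice the test has fewer sign patterns and a larger smallest p, so crossing the threshold does not single out a mouse. The log2 ratios ran from 0.18 to 0.29 for the first pair and from 0.13 to 0.25 for the second.

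The members did not move as a block within the mice. Over the 45 pairs of members, Pearson's r of the within-mouse log2 changes of 8 mice ran from -0.77 to 0.90, with 8 pairs above 0.6 and 2 below -0.6. Of these 8 pairs, 4 also had a Spearman's rho above 0.6, and 3 kept an r above 0.6 whichever mouse was left out. These are descriptions over 8 mice whose pairs share libraries and scaling. *Id1* and *Id4* had r = 0.87 (Spearman's rho 0.81), and 0.91 without mice 13 and 14. *Id1* and *Id3* had r = 0.73 (rho 0.52), and 0.60 to 0.90 when each mouse was left out. *Id3* and *Id4* had r = 0.45 (rho 0.19).

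The ligands and their antagonist had positive r with each other. *Bmp4* and *Nog* had r = 0.75 (rho 0.88), and 0.75 without mice 13 and 29. *Bmp2* had r = 0.68 with *Nog* and 0.61 with *Bmp4*, the latter 0.47 without mice 21 and 29. *Smad6* and *Bmp2* had r = 0.90 but rho 0.55, with mouse 29 the highest in both. *Id2* ran opposite to *Bmp4* (r = -0.77, rho -0.74) and to *Nog* (r = -0.76, rho -0.74). The first of these was -0.25 without mice 13 and 29, and the second was -0.53 without mouse 50.

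Other gene lists, of the pathway and of cell types, moved with some of these genes. Of 230 relations between the 10 members and the median changes of 23 gene lists, 12 had an r beyond 0.8 in size (8 mice). SMAD ubiquitin ligases and co-repressors had r = 0.89 with *Bmp2*, 0.87 with *Smad6* and 0.82 with *Bmp4*. Other BMP ligands had 0.85 with *Smad7*. *Nog* had -0.84 with other secreted antagonists, 0.84 with other target genes and -0.86 with fibroblast markers. *Bmp2* had 0.87 with glucocorticoid-responsive genes and *Bmp4* 0.804 with Schwann cell markers. Without the 2 mice farthest from the median these were 0.24 to 0.90 in size. The relations described next were picked after their values were seen. The *Id2* change tracked that of 8 immune cell markers (7 tested) with r = 0.91 and rho 0.95, and 0.89 without the 2 mice farthest from the median. Mouse 50 had a median change of 1.24 in immune markers and 0.92 in *Id2*, and mouse 13 had -0.95 and -0.54. The immune markers summed to 259 to 389 CPM at 24 months and 208 to 727 CPM at 30 months. Their part in the *Id2* result was not tested.

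*Id1* and *Id4* ran opposite to vessel markers. *Id4* had r = -0.92 (rho -0.90) with 6 smooth muscle and pericyte markers, and *Id1* had r = -0.89 (rho -0.76). With 13 endothelial markers r was -0.71 for *Id1*, -0.75 for *Id4* and -0.71 for *Smad7*, none of them beyond 0.8 in size. For *Id3* it was -0.24. Without the 2 mice farthest from the median these were -0.67, -0.64, -0.51 and -0.58 in the same order. All 13 endothelial markers had a fitted change above 0 (median log2 change 0.51), beside 52.1% of all genes. At an unadjusted p under 0.05, 7 were higher, beside 4.83% of all genes, and 0 passed the adjusted threshold. The endothelial markers summed to 176 to 250 CPM at 24 months and 184 to 475 CPM at 30 months. In mice 13 and 50, the 2 mice with lower *Id1*, the median endothelial change was 0.89 and 1.14, and in mouse 64, with *Id1* higher by 1.08, it was -0.10. Not every mouse followed this order, since mouse 14, with the largest *Id1* difference of 1.18, had an endothelial change of 0.36, and mouse 21, with *Id1* higher by 0.34, had 1.12. The part of the vessel markers in the *Id1* and *Id4* values was not tested.

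**Figure D4:**
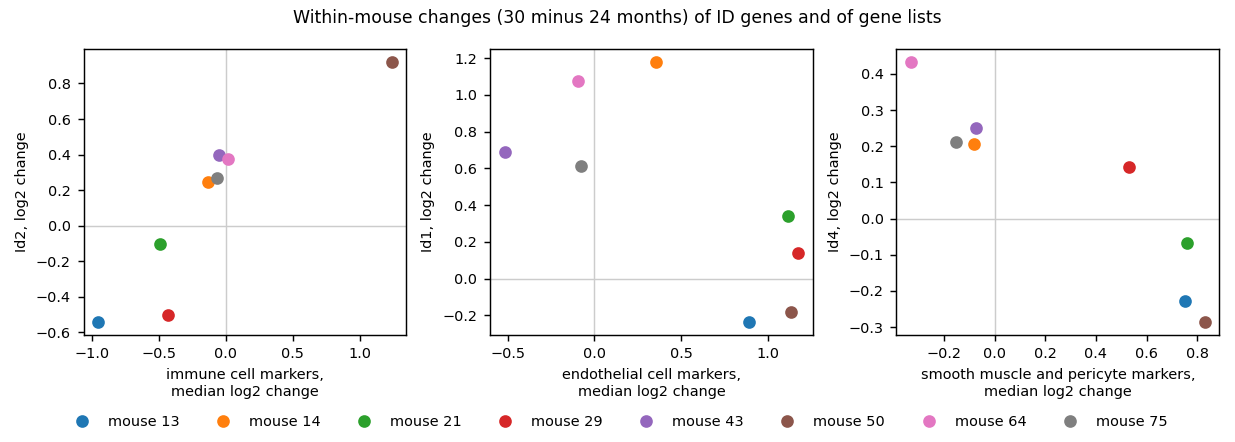
Within-mouse log2 change (30 minus 24 months) of *Id2*, *Id1* and *Id4* on the vertical axes against the median log2 change of immune, endothelial, and smooth muscle and pericyte markers on the horizontal axes, with a point for each of the 8 mice. The points slope upwards for *Id2* (r = 0.91) and downwards for *Id1* (r = -0.71) and *Id4* (r = -0.92).

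The genes whose level was most like that of each ID gene and inhibitory SMAD were looked up by Pearson's r of log2 CPM over the 16 libraries among 17775 genes with a mean CPM of at least 1. The libraries come in pairs from the same mice, and these are the highest values of many. The age means were not taken out, so a shared difference between the ages enters r. For *Id1* they were the immediate-early genes *Ier2* (r = 0.91) and *Egr1* (0.84), followed by *Id3* (0.83). *Id3* had *Ier2* (0.84), *Id1* (0.83) and *Fam3b* (0.79), and the rho of *Id3* with *Ier2* was 0.96.

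The other ID genes had neighbours of another kind. *Id2* was most like *Ccr2* (0.93), a chemokine receptor of monocytes, *Tifab* (0.92) and *Cxcr6* (0.91), a chemokine receptor of T cells. *Id4* was most like *Erich1* (0.91), *Smagp* (0.83) and *Atl2* (0.82). For *Smad6* the nearest were *Amotl2* (0.94), *Rab5a* (0.92) and *Epc2* (0.91), and for *Smad7* they were *Sypl* (0.77), *Abca8b* (0.75) and *Lrrn3* (0.75).

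Immediate-early genes, which cells switch on within minutes of a stimulus, were also read as a list. Of 15 such genes 14 had a fitted change above 0 (median log2 change 0.40), beside 52.1% of all genes. In all mice 5 were higher, beside 1.09% of all genes, and 0 passed the adjusted threshold. *Ier2* and *Egr1*, the neighbours of *Id1* named above, are in it and were higher in all mice. The list was also chosen with this contrast known, so nothing is read from these counts. *Egr1* was at 43.5, 57.9 and 89.3 CPM at 24 months and at 56.9, 94.9 and 260.2 CPM at 30 months, with a log2 change of 0.86 (SE 0.16; edgeR adjusted p = 0.148). *Junb* (0.50, SE 0.080) and *Ier3* (0.47, SE 0.079) were higher in 8 of 8 mice, with edgeR adjusted p-values of 0.127 and 0.136. The list summed to 862 to 1185 CPM at 24 months and 922 to 2049 CPM at 30 months. Across mice its median change had r = 0.48 with that of *Id1*, and -0.25 without the 2 mice farthest from the median. With *Id3* r was 0.26, and -0.05 without such mice. The part of these genes in the *Id1* and *Id3* values was not tested.

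The rest of the BMP pathway gave no common direction. Of 59 other genes in 6 lists by role, 53 were tested, 25 with a fitted change above 0 and 28 below, and 0 passed the adjusted threshold. At an unadjusted p under 0.05, 4 (7.55%) were higher, beside 4.83% of all genes, and 5 (9.43%) lower, beside 7.37%. The median log2 change of the 53 genes was -0.01. Under DESeq2's Wald test 1 of them passed the adjusted threshold.

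Among 13 other BMP ligands, *Bmp10* was at 0 counts in all libraries and 9 were tested, 2 of them with a change above 0 and 7 below. *Bmp5*, a ligand of the same family, was at 9.62, 12.5 and 16.3 CPM at 24 months and at 6.83, 7.62 and 18.04 CPM at 30 months. Its log2 change was -0.48 (SE 0.19; edgeR adjusted p = 0.347), lower in 7 of 8 mice. The list also held *Bmp3* with a log2 change of 0.30 (SE 0.25).

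Of 10 receptors and co-receptors, 6 had a change above 0 and 4 below. *Rgmb*, a co-receptor that binds BMP ligands, was at 51.3, 62.3 and 69.3 CPM at 24 months and at 34.6, 49.5 and 58.1 CPM at 30 months. It was lower in 8 of 8 mice, as were 1.8% of all genes, with a log2 change of -0.37 (SE 0.078; edgeR adjusted p = 0.198). *Bmpr1a*, a type I receptor, was at 171, 178 and 184 CPM and then at 136, 156 and 183 CPM (log2 change -0.16, SE 0.064; edgeR adjusted p = 0.356). *Bmpr1b* was low, with medians of 1.92 and 2.74 CPM, and its log2 change was 0.69 (SE 0.33).

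The 4 BMP SMADs, which carry the signal to the nucleus, had fitted changes close to 0. *Smad1* had a log2 change of 0.07 (SE 0.072), *Smad5* of -0.04 (SE 0.058) and *Smad9* of 0.08 (SE 0.19). Together these genes summed to 250 to 284 CPM at 24 months and 246 to 292 CPM at 30 months.

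Of 16 other secreted antagonists and modulators, 14 were tested, 5 with a change above 0 and 9 below. *Twsg1*, a BMP-binding modulator, was at 126, 131 and 142 CPM at 24 months and at 82.4, 113 and 125 CPM at 30 months. Its groups did not overlap, as was the case for 0.144% of all genes in this direction, and it was lower in 8 of 8 mice with a log2 change of -0.26 (SE 0.076; edgeR adjusted p = 0.272). *Nbl1* was higher in 7 of 8 mice (log2 change 0.17, SE 0.073; edgeR adjusted p = 0.389), and *Grem1*, the gene of gremlin, lower in 6 of 8 (-0.35, SE 0.16; edgeR adjusted p = 0.420).

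Inside the cell, the SMAD ubiquitin ligases *Smurf1* and *Smurf2* had log2 changes of 0.19 (SE 0.096) and -0.15 (SE 0.069). *Ppm1a*, a phosphatase of SMADs, was higher in 7 of 8 mice with 0.21 (SE 0.074; edgeR adjusted p = 0.320). Of 10 other target genes, *Msx2*, a homeobox gene, had a log2 change of -0.49 (SE 0.18; edgeR adjusted p = 0.322) and *Atoh8* of 0.42 (SE 0.16; edgeR adjusted p = 0.339). *Hamp2* had 1.18 (SE 0.43; edgeR adjusted p = 0.335) at medians of 0.667 and 1.44 CPM.

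**Figure D5:**
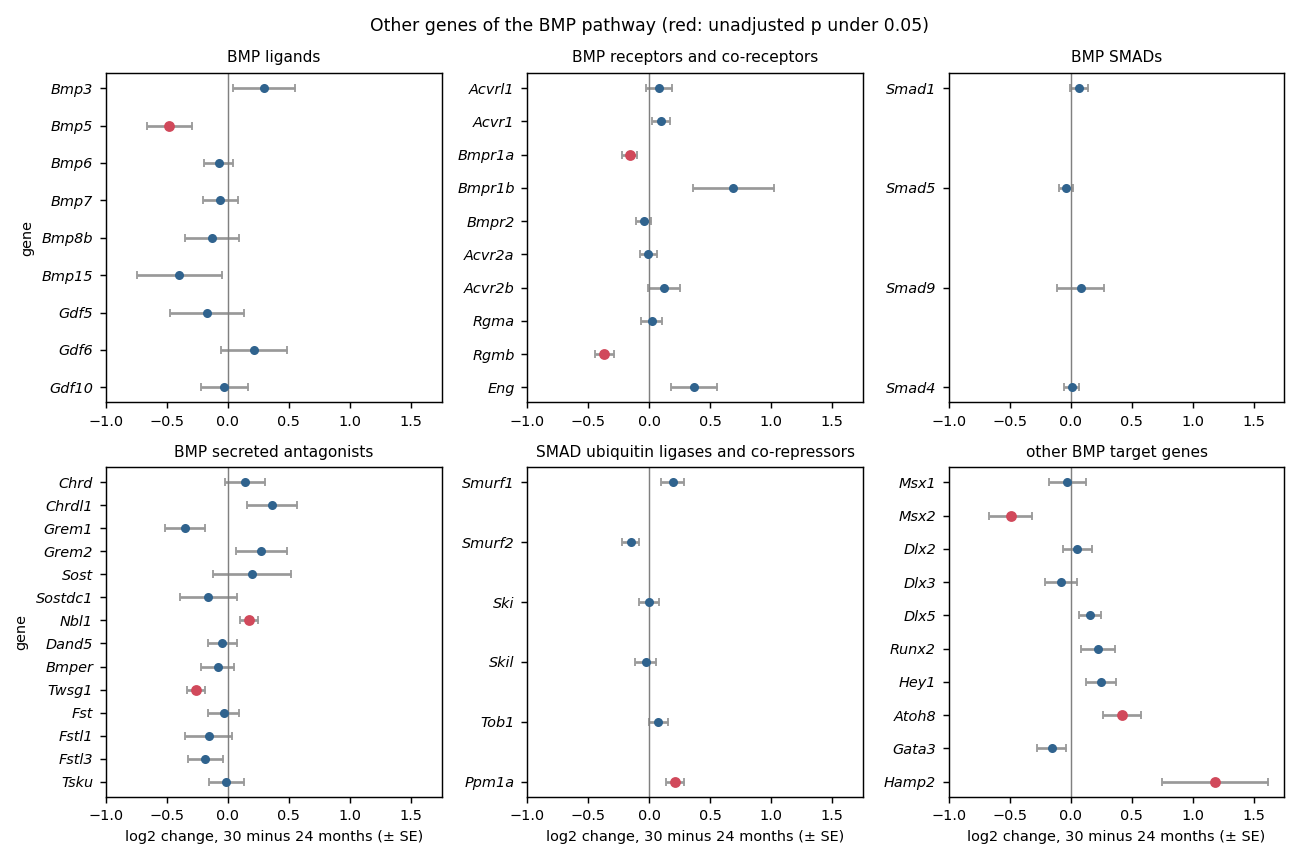
Fitted log2 change (30 minus 24 months, points) with its standard error (bars) for the 53 other BMP pathway genes tested, in 6 panels by role. The 9 red points have an unadjusted p under 0.05, 4 to the right and 5 to the left of 0, and none passes after adjustment.

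Helix-loop-helix partners of the ID proteins and the TGF-beta branch were read as further lists. Of 9 tested partners 6 had a change above 0, and *Ascl2* was at -0.34 (SE 0.15; edgeR adjusted p = 0.387), lower in 6 of 8 mice. Of 10 genes of the TGF-beta branch 5 were above 0 and 5 below, and *Tgfbr2*, its type II receptor, had 0.27 (SE 0.097; edgeR adjusted p = 0.331).

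RefSeq promoter windows (GRCm38.p6, 250 bases before to 50 after the start) were at hand for 5 members, *Id2*, *Id3*, *Id4*, *Smad6* and *Bmp4*. They were searched on both strands for GGCGCC, a motif of BMP SMADs found in 11.9% of 32851 promoters of this length, GTCT, the SMAD box found in 88.0%, and GCGNGGGCG, the motif of EGR factors found in 5.55%. *Id2* and *Id4* held 1 match each to GGCGCC and *Id4* held 2 to GCGNGGGCG, and the windows of *Id3*, *Smad6* and *Bmp4* held neither. Matches to GTCT numbered 3 in *Id3*, 2 each in *Smad6* and *Bmp4*, 1 in *Id2* and 0 in *Id4*. The mean over all promoters was 2.27. The GGCGCC and EGR motifs are made of G and C apart from the open letter N. G and C made up 73.3% of the *Id4* window, at the percentile 94.5 of promoters, and 63.3% of that of *Id2*. The median promoter held 52.7%, and the shares of promoters with a match are not matched for this. The window of *Id4* is shown for its first 250 bases, at chr13:48260866-48261115 on the plus strand, because it held both of the rarer motifs, which do not overlap and are in capitals.
Id4 promoter: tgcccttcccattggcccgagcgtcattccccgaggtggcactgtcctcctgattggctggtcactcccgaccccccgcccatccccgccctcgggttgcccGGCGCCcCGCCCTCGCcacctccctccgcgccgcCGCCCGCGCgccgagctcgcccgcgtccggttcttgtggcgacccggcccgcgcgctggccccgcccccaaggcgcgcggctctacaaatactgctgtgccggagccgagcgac
A match of letters is a description of the sequence and no measure of binding.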

How the data were processed

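RNA was sequenced from 16 ear biopsies of 8 mice with single-end reads of 50 bases. The authors deposited raw counts of reads per gene, without normalization and with replicates kept apart. Their processing notes list CASAVA 1.8.4, TopHat2 2.1.0 and HTSeq 0.6.1p1 with build mm10 (GRCm38). How the counting handled strand is not given in the sources used here. A further 18.7% to 21.1% of reads stood on 5 lines that name no gene and were left out.

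Groups and mouse numbers were taken from the labels. Symbols, positions and exon lengths came from GENCODE M21, which held 45143 of the 45706 identifiers. Counts were fitted in R 4.3.3 with edgeR 4.0.16 (TMM, filterByExpr, quasi-likelihood test, mouse as a block), with DESeq2 1.42.0 as an alternative, and p-values were adjusted by Benjamini-Hochberg over 20116 genes with a threshold of 0.05. The fit was tried on simulated counts with changes larger than those fitted for the members and the same spread for all genes. That trial does not show how well changes of the members' size are found. CPM per library used the TMM factors, and log2 CPM a prior count of 2. RPKM ratios were taken as log2(RPKM + 0.1) and tested in Python 3.11.15 over all 256 sign patterns, for which the smallest p is 0.00781.

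The libraries are paired because the biopsies of a number come from the same animal. Deviations from the age means correlated within a mouse by -0.45 to 0.25 (median -0.03), over 0.1 in 2 of 8 pairs.

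The members and all gene lists were chosen with earlier results of these data known. Named genes were all members, up to 3 genes per other list with the smallest unadjusted p or at 0 in all libraries, the 3 genes most alike, and markers for checks of tissue. The fit covers the members too, but no test result is given for their age changes. Alternatives were other normalizations, filters, tests and correlations, no block, age as a continuous covariate, and each mouse left out.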

Additional observations from a re-analysis of the deposited data

Results flagged for a closer look

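The log2 change of *Bmp2* in mouse 29 was 0.75, and the next highest of the 8 mice was at 0.16. The gap made up 0.542 of the whole range, beyond Dixon's 95% critical value for 8 values. Of 30 groups of 8 values examined for the members, 1 stood apart in this way, where 1.5 would be expected by chance. In the same mouse the median change of 8 glucocorticoid-responsive genes was 1.98, *Smad6* was higher by 0.51 and *Nog* by 0.68 on the log2 scale, the highest of the mice in each case. Their relation to the *Bmp2* value was not tested.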

How the results depend on the processing

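Of 422 values recomputed under alternatives, 394 kept their side of the threshold or, for counts and values without a test, moved by at most 1.5 times or by less than the spread between mice. Within that spread, the change of *Bmp4* turned from -0.01 to 0.03 without mouse 21 or 50, to 0.02 without mouse 43 and to above 0 without mouse 64 or without the block, and that of *Smad7* from 0.03 to -0.02 without mouse 64. Without the replicate block, that is without the pairing by mouse, 4 genes passed the adjusted threshold in place of 0, and 1612 in place of 971 were higher at an unadjusted p under 0.05. Among other BMP pathway genes that count was 8 in place of 4. DESeq2's Wald test called 241 genes, 1 of them among the other BMP pathway genes, and its likelihood ratio test called 63 genes as different between mice, where edgeR called 0. The causes were not tested.

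With each mouse left out, the unadjusted counts ran from 673 (without mouse 29) to 1710 (without mouse 43) higher genes and from 1019 to 1887 lower genes. For the other BMP genes they ran from 2 (without mouse 29 or 75) to 6 higher and from 3 (without mouse 13) to 7 lower. The change of *Id1* ran from 0.35 (without mouse 14) to 0.55, and that of *Id3* from 0.39 (without mouse 14) to 0.51, whereas that of *Id2* was 0.02 without mouse 50. The pairs of members with r above 0.6 were 8 over all mice, 5 with Spearman's correlation, and 7 to 14 with each mouse left out, with 14 without mouse 13 and 13 without mouse 43. The neighbour pairs past the threshold were 6 to 7 in place of 8, with an exact test whose smallest p is larger with fewer mice. The members with a ratio of SDs above 2 were 6 to 7, an alternative added after the data were seen, as was the unscaled library size (6).

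Depth limited *Nog* most, with 77 counts in its lowest library. The fitted log2 changes of *Smad7* (0.03, SE 0.084) and *Bmp4* (-0.01, SE 0.094) were smaller in size than their standard errors. The same held for *Id2*, *Id4*, *Bambi*, *Bmp2* and *Nog*. What size of change could be found with 8 mice and bulk tissue was not tested.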
